A study of Mus musculus with 6 samples.

Results

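Wnt signalling and target genes were examined in colon tumors of Tmem173iΔmye and Tmem173fl/fl AOM+DSS-L mice. The members are 41 named genes of the pathway, taken by gene name from the 54532 genes that were counted, and all 41 were found. RNA-seq was performed on total tumor RNA in 6 samples, 3 per group, each called a tumor here. Both groups were C57BL/6N mice that received the carcinogen azoxymethane (AOM) and 3 cycles of the colitis-inducing agent dextran sulfate sodium (DSS), and both received tamoxifen (TAM) only after these cycles, when tumors had formed. Both groups carry loxP sites around Tmem173, which encodes the DNA-sensing adaptor STING. The Tmem173iΔmye mice also carry Lyz2-Cre ert2, which is driven by a myeloid promoter and active after TAM, so deletion is limited to the cells that express Lyz2, while the Tmem173fl/fl mice carry no Cre. The sources used here give an age at AOM only for the mice that received TAM around that injection, not for these groups, and the number of tumors in each RNA sample was not stated. Nothing in the labels says how the 3 samples of a group were collected beyond their numbers, and p-values measure only the spread between them.

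Wnt proteins are secreted ligands that bind Frizzled receptors and the co-receptors LRP5 and LRP6. Without a ligand, a complex built on APC and Axin marks β-catenin for destruction, and with a ligand β-catenin accumulates, enters the nucleus and switches on target genes together with TCF and LEF factors. In the colon this pathway keeps the stem cells at the crypt base, R-spondins from the stroma strengthen it, and colon tumors commonly hold it active through lesions in APC or β-catenin. AOM-induced tumors of mice are known for activating mutations of β-catenin.

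Many of the members that passed a filter on level were strongly transcribed, and no member differed between the genotypes after adjustment for all genes. With a minimum of 0.5 for the mean FPKM, 37 members remained and were tested among 16426 genes. The members were chosen with earlier results of these data known, so their levels cannot stand for the pathway as a whole. Of 92 further genes of the pathway, 69 passed the filter. FPKM, here counts scaled to gene length and to a factor for the depth of each library, is a level that can be compared between genes. The median of the 37 members was 32.1 FPKM, against 5.67 FPKM over all genes tested, and 16 of the 37 lay at or above percentile 90. In edgeR's quasi-likelihood test, adjusted by Benjamini-Hochberg, 0 members passed an adjusted p of 0.05, where 0% of all genes tested did, and the smallest adjusted p of a member was 0.742. With DESeq2 28 of all genes passed, 0 of them members. An unadjusted p under 0.05 was found for 3 members (8.11%), beside 1008 genes or 6.14% of all genes tested. These were Wnt5a, which was higher in Tmem173iΔmye tumors, and Fzd7 and Dkk2, which were lower. With DESeq2, 4 members (10.8%) had an unadjusted p under 0.05, beside 6.65% of all genes. None of the 37 members passed the limits given in the methods of the study, a log2 fold change of 1 or more in either direction and p of 0.05, which 2.12% of all genes did. The log2 fold changes of Tmem173iΔmye over Tmem173fl/fl tumors ranged from -0.72 for Wnt10a to 0.45 for Wnt5a, with 15 above 0 and 22 below and a median of -0.090, where the median of all genes was -0.0042. With Y-linked reads as a term the direction of the median turned, to 0.0079, and 20 members were above 0, beside 49.9% of all genes. Leaving out 1 tumor at a time changed the sign or moved the log2 fold change by over 1.5 times for 32 of the 37 members. The median absolute log2 fold change of the members was 0.24 beside a median SE of 0.23, and over all genes tested these were 0.20 and 0.23. The share of all genes that moved so was not worked out, so this count cannot set the members apart from other genes. The 3 members with an unadjusted p under 0.05 each lost it in at least 1 of these fits, and 11 of the other 34 gained it in at least 1. The share of all genes that gained it in at least 1 fit was not worked out, so this too cannot set the members apart. In single fits of this kind, 3.26% to 10.1% of all genes had an unadjusted p under 0.05.

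Libraries were of similar depth, with 15329810 to 16533732 counts per tumor, at which a count of 0 allows up to 0.196 CPM (counts scaled to library size), counting error alone. The colon epithelial markers fixed for the check were all counted in every tumor, and their summed level was 14909 to 17986 CPM in Tmem173fl/fl and 16663 to 19322 CPM in Tmem173iΔmye tumors. Tmem173 itself did not separate the groups, its counts being 1705 to 2911 in Tmem173fl/fl and 1953 to 2291 in Tmem173iΔmye tumors. Y-linked genes were counted 2655 to 3547 times in 1 Tmem173fl/fl and 2 Tmem173iΔmye tumors and at most 2 times in the other 3, so the sexes were not balanced. Tmem173iΔmye replicate 1 stood apart in the Wnt members and is set out after the members.

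**Figure D1:**
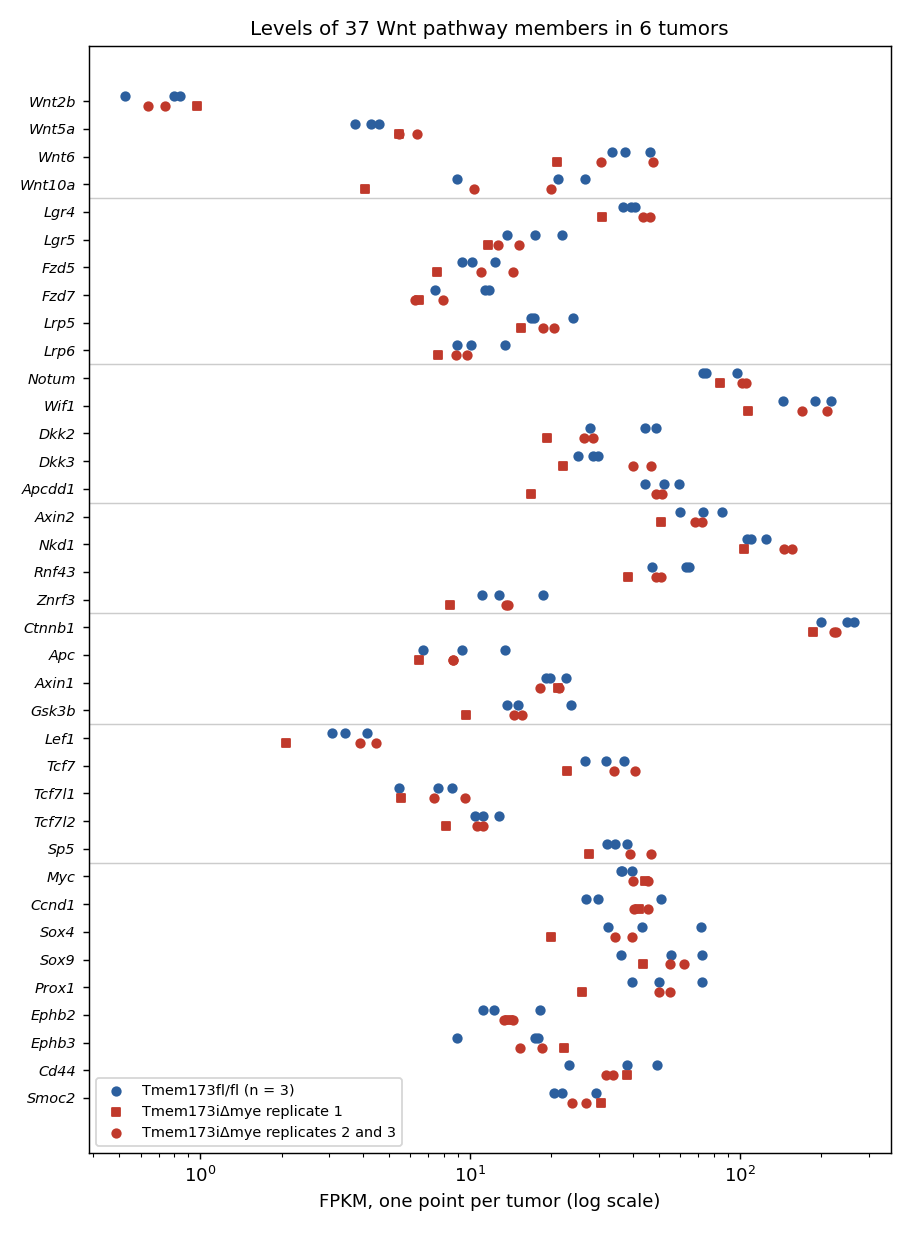
FPKM (log axis) of the 37 tested members in each tumor, with Tmem173fl/fl tumors in blue and Tmem173iΔmye tumors in red, and lines between the roles. Ctnnb1, Wif1 and Nkd1 lie furthest to the right, and in most rows the groups overlap, with Tmem173iΔmye replicate 1 (square) at the low end for 24 of the 37 members.

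Among the Wnt ligands, Wnt6 and Wnt10a were at the highest levels and Wnt5a was the ligand with an unadjusted p under 0.05. Wnt5a, which mostly acts without β-catenin and is made by stromal cells, had 4.30, 4.57 and 3.75 FPKM in Tmem173fl/fl replicates 1 to 3 and 5.46, 6.37 and 5.43 FPKM in Tmem173iΔmye replicates 1 to 3, the order used throughout. Every Tmem173iΔmye tumor was above every Tmem173fl/fl tumor. The means were 5.75 ± 0.532 (SD, n = 3) and 4.21 ± 0.417 FPKM (SD, n = 3), a log2 fold change of 0.45 (SE 0.14, edgeR adjusted p = 0.742, unadjusted p under 0.05). Without Tmem173fl/fl replicate 3 it was 0.38 and without Tmem173iΔmye replicate 2 it was 0.37, both with an unadjusted p above 0.05. Of the 12 fibroblast markers tested, 11 had higher fitted levels in Tmem173iΔmye tumors, and their median log2 fold change was 0.36. Of all genes tested, 49.4% had higher fitted levels there. Smooth muscle markers went the other way, 8 of 9 tested having lower fitted levels, with a median log2 fold change of -0.51. The summed level of the 14 fibroblast markers was 1924 to 2405 CPM in Tmem173fl/fl and 2085 to 2949 CPM in Tmem173iΔmye tumors, and no marker was at 0 in any tumor. Counted per 1000 counts of these markers, the Wnt5a counts were 17.6, 18.5 and 12.3 for Tmem173fl/fl and 20.6, 17.0 and 17.8 for Tmem173iΔmye. Most counts of these markers came from Col1a1, Col1a2, Col3a1 and Dcn, so this scale mainly follows those genes. On this scale the groups overlapped, and the log2 fold change was 0.20, with an unadjusted p above 0.05, a scaling chosen after the values were seen. In bulk RNA, fewer cells of a type and less RNA per cell cannot be told apart. Scaled to the epithelial markers, Wnt5a had a log2 fold change of 0.33, and the unadjusted p was above 0.05.

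Wnt6 and Wnt10a, which activate β-catenin in other epithelia, lie side by side on the plus strand of chromosome 1 of GRCm38, at chr1:74771892-74785322 and chr1:74791516-74804179, with 6193 bases between them. Wnt6 had 33.6, 37.3 and 46.5 FPKM in the Tmem173fl/fl and 20.9, 47.7 and 30.6 FPKM in the Tmem173iΔmye tumors. Wnt10a had 8.92, 21.1 and 26.7 FPKM in the Tmem173fl/fl and 4.08, 19.9 and 10.3 FPKM in the Tmem173iΔmye tumors. Both genes were lowest in Tmem173iΔmye replicate 1, and within Tmem173fl/fl tumors both were highest in replicate 3. Wnt10a varied most of the tested members, by 6.54-fold between its highest and lowest tumor, and the level of Wnt10a was 0.195 to 0.574 of that of Wnt6. The groups overlapped for both, with log2 fold changes of -0.24 (SE 0.29) for Wnt6 and -0.72 (SE 0.57) for Wnt10a. Without Tmem173iΔmye replicate 2, Wnt10a came to -1.40 and passed the limits of the study, while without Tmem173iΔmye replicate 1 it came to -0.32, without Tmem173fl/fl replicate 3 to -0.39 and with Y-linked reads as a term to -0.40. Wnt2b, a stromal ligand that sustains the crypt, was far lower, with 0.838, 0.795 and 0.525 FPKM in the Tmem173fl/fl and 0.974, 0.640 and 0.738 FPKM in the Tmem173iΔmye tumors. Its log2 fold change of 0.12 was smaller than its SE of 0.33.

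The R-spondins, which bind LGR receptors and protect Frizzled receptors from turnover, were hardly detected in whole tumors. Counts of Rspo3 were 6, 13 and 14 against 19, 10 and 15, or 0.225 ± 0.0876 (SD, n = 3) and 0.299 ± 0.0927 FPKM (SD, n = 3). Rspo1 had 6, 2 and 5 counts against 4, 3 and 1 counts. Rspo2 had 0, 2 and 0 counts against 0, 4 and 2 counts, and no fold change is given for it. These 3 genes were under the filter and were not part of the main test. Fitted without the filter, Rspo3 had a log2 fold change of 0.42 (SE 0.56, edgeR adjusted p = 0.829).

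The receptors were transcribed at 8.51 to 39.6 FPKM on average, led by Lgr4. Fzd7, a Frizzled receptor of intestinal stem cells, lies at chr1:59482424-59486955. It had 7.39, 11.3 and 11.7 FPKM in the Tmem173fl/fl tumors and 6.46, 6.25 and 7.92 FPKM in the Tmem173iΔmye tumors. Tmem173fl/fl replicate 1 was below Tmem173iΔmye replicate 3, so the groups overlapped. The log2 fold change was -0.56 (SE 0.20, edgeR adjusted p = 0.742, unadjusted p under 0.05). Its p was above 0.05 without either of Tmem173fl/fl replicates 2 and 3 and without either of Tmem173iΔmye replicates 1 and 2, with log2 fold changes of -0.48, -0.44, -0.52 and -0.50. Lgr5, an R-spondin receptor, Wnt target and the best-known marker of crypt stem cells, had 17.4, 21.8 and 13.7 FPKM in the Tmem173fl/fl and 11.6, 12.6 and 15.1 FPKM in the Tmem173iΔmye tumors. Only replicate 3 of each group crossed, and the log2 fold change was -0.43 (SE 0.19, edgeR adjusted p = 0.742). Its unadjusted p was above 0.05 here and under 0.05 without the filter on low genes and with DESeq2. The related receptor Lgr4, which is expressed more widely along the crypt, was about level, at 39.0 ± 2.10 (SD, n = 3) and 40.3 ± 8.43 FPKM (SD, n = 3). The level of Lgr5 was 0.373 to 0.552 of that of Lgr4 in Tmem173fl/fl tumors and 0.289 to 0.379 in Tmem173iΔmye tumors, ranges that met at their edges. The Frizzled receptor Fzd5 and the co-receptors Lrp5 and Lrp6 had log2 fold changes of 0.041 (SE 0.24), -0.090 (SE 0.18) and -0.31 (SE 0.18).

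Extracellular inhibitors were among the most abundant members. Wif1, which binds and sequesters Wnt ligands, had 144, 218 and 190 FPKM in the Tmem173fl/fl and 107, 170 and 210 FPKM in the Tmem173iΔmye tumors. Notum, an enzyme that removes the lipid Wnt ligands need, had 97.8, 74.9 and 72.9 FPKM against 84.2, 101 and 105 FPKM. Both genes overlapped between the groups, with log2 fold changes of -0.18 (SE 0.27) for Wif1 and 0.24 (SE 0.17) for Notum. The antisense gene Notumos overlaps Notum and had 21.5% of its mean count, and without a stated strand setting reads of the pair cannot be told apart.

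Dkk2, a secreted ligand of LRP5 and LRP6 that modulates the pathway, lies on the plus strand at chr3:132085292-132180304. It had 27.9, 44.6 and 48.9 FPKM in the Tmem173fl/fl and 19.3, 28.6 and 26.4 FPKM in the Tmem173iΔmye tumors. Replicates 2 and 3 of the Tmem173fl/fl group stood above all other tumors, while replicate 1 lay within the range of the Tmem173iΔmye group. The log2 fold change was -0.71 (SE 0.24, edgeR adjusted p = 0.742, unadjusted p under 0.05). Its p was above 0.05 without Tmem173fl/fl replicate 2 or 3 or Tmem173iΔmye replicate 1, with log2 fold changes of -0.64, -0.54 and -0.56. The relative Dkk3 was at 27.8 ± 2.42 (SD, n = 3) and 36.4 ± 12.8 FPKM (SD, n = 3), a log2 fold change of 0.39 (SE 0.26). Without Tmem173iΔmye replicate 1, where it was lowest, it was 0.65, with an unadjusted p under 0.05. Apcdd1, a membrane inhibitor and Wnt target, had 44.3 to 59.2 FPKM in the Tmem173fl/fl tumors and 16.8, 51.3 and 48.8 FPKM in the Tmem173iΔmye tumors, so its log2 fold change of -0.41 (SE 0.38) came to -0.057 without Tmem173iΔmye replicate 1.

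**Figure D2:**
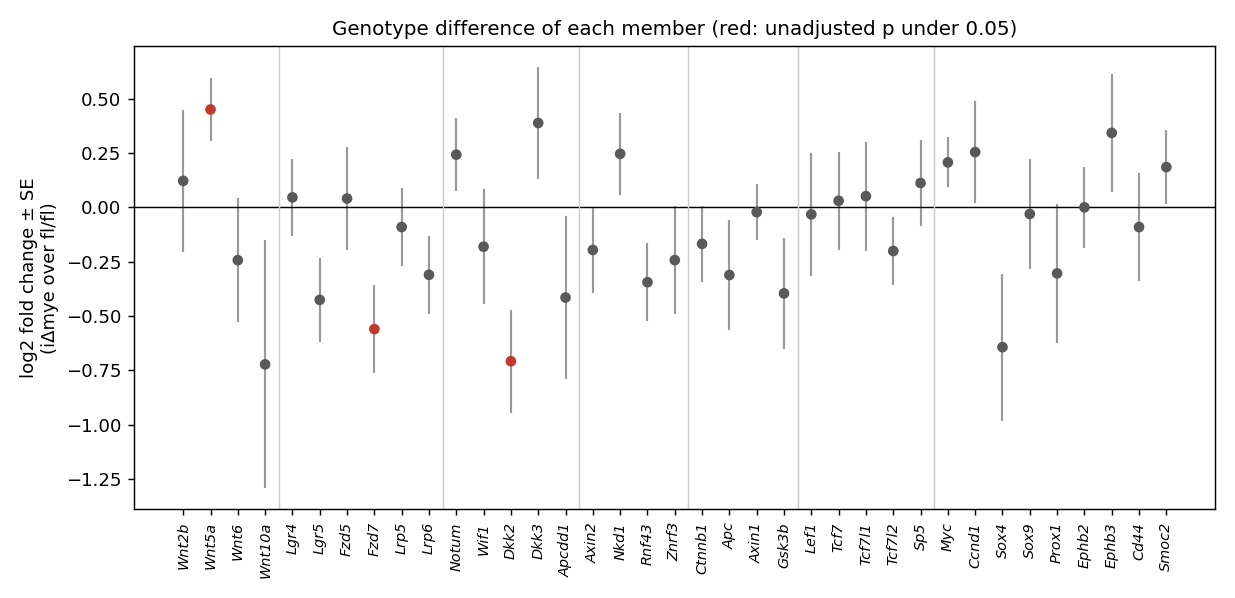
The log2 fold change of Tmem173iΔmye over Tmem173fl/fl tumors for each tested member, by role, with bars of ± 1 SE from edgeR. Wnt5a (0.45), Fzd7 (-0.56) and Dkk2 (-0.71), in red, had an unadjusted p under 0.05. Of the 37 members, 33 (89.2%) lay within 0.5 of 0, beside 81.8% of all genes tested.

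Negative feedback genes, which β-catenin switches on and which in turn damp the pathway, are the usual transcriptional readout of Wnt activity. Axin2, a scaffold of the destruction complex and the most used readout, lies on the plus strand at chr11:108920349-108950783. It had 72.9, 60.0 and 85.5 FPKM in the Tmem173fl/fl and 50.9, 67.8 and 72.2 FPKM in the Tmem173iΔmye tumors. These ranges overlapped, and the log2 fold change was -0.20 (SE 0.20, edgeR adjusted p = 0.812). It came to -0.060 without Tmem173fl/fl replicate 3 or without Tmem173iΔmye replicate 1, and to -0.32 without Tmem173fl/fl replicate 2. Nkd1, which binds Dishevelled, reached 114 ± 10.1 (SD, n = 3) and 135 ± 27.7 FPKM (SD, n = 3), a log2 fold change of 0.25 (SE 0.19). Its relative Nkd2 was under the filter, with counts of 35, 29 and 33 against 52, 30 and 21. Rnf43 and Znrf3, ubiquitin ligases that remove Frizzled receptors from the cell surface, had log2 fold changes of -0.34 (SE 0.18) and -0.24 (SE 0.25), and Znrf3 came to -0.0050 without Tmem173fl/fl replicate 2. Axin2, Nkd1, Rnf43 and Znrf3 were all lowest in Tmem173iΔmye replicate 1, and the directions of the group means differed, with Nkd1 above 0 and the other 3 below.

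β-catenin and the 3 genes of its destruction complex had fitted levels below those of the Tmem173fl/fl tumors, with no adjusted p under 0.05, and with Y-linked reads as a term Axin1 came to 0.020, above 0. Ctnnb1, which encodes β-catenin, was the most abundant member and stood above 99.0% of the genes tested. It had 200, 249 and 265 FPKM in the Tmem173fl/fl and 186, 223 and 226 FPKM in the Tmem173iΔmye tumors, with overlapping groups and a log2 fold change of -0.17 (SE 0.17, edgeR adjusted p = 0.816). Apc, the tumor suppressor that holds the destruction complex together, had 9.36, 13.4 and 6.70 FPKM against 6.43, 8.65 and 8.66 FPKM, a log2 fold change of -0.31 (SE 0.25), which was -0.029 without Tmem173fl/fl replicate 2 and -0.52 without replicate 3 of that group. Axin1, the constitutive relative of Axin2, had the smallest spread of the tested members, 1.25-fold between its highest and lowest tumor, and Gsk3b, the kinase that marks β-catenin, had a log2 fold change of -0.40 (SE 0.26). The level of Axin2 was 2.40 to 4.32 times that of Axin1 in single tumors.

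Of the TCF and LEF genes, Tcf7 was transcribed most and Lef1 least, with Tcf7 at 6.42 times the FPKM of Lef1 or more in every tumor. Tcf7, Tcf7l1 and Lef1 had log2 fold changes of 0.031 (SE 0.23), 0.052 (SE 0.25) and -0.032 (SE 0.28). The gene Gm37969 overlaps Tcf7l1 on the same strand and had a mean count of 50.2, beside 457 for Tcf7l1. Tcf7l2, the main partner of β-catenin in intestinal crypts, had 10.4 to 12.7 FPKM in the Tmem173fl/fl and 8.10 to 11.2 FPKM in the Tmem173iΔmye tumors, a log2 fold change of -0.20 (SE 0.16). Sp5, a direct β-catenin target that acts as a repressor at Wnt target genes, had 38.0, 32.1 and 34.4 FPKM in the Tmem173fl/fl and 27.6, 46.7 and 38.9 FPKM in the Tmem173iΔmye tumors. The Tmem173iΔmye tumors spanned the range of the other group, and the log2 fold change was 0.11 (SE 0.20).

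The promoters of Sp5, Axin2 and Dkk2 are shown because Sp5 and Axin2 are the closest transcriptional readouts of β-catenin here and Dkk2 had the largest difference of the members with an unadjusted p under 0.05. Each is the RefSeq window on GRCm38.p6 from 250 bases before to 50 bases from the start of the gene, on the plus strand, at chr2:70474673-70474972, chr11:108920099-108920398 and chr3:132085042-132085341. Capitals mark only the letters CTTTGAA or CTTTGAT, which are forms of the core that TCF and LEF factors bind. Both strands were searched for these, and other forms of the core were not searched for.
Sp5: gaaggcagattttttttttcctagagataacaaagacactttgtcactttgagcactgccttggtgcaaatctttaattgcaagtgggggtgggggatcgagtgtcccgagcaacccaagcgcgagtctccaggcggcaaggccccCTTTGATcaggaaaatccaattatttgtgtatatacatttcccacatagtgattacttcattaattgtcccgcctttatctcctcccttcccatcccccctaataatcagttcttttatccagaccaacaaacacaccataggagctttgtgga
Axin2: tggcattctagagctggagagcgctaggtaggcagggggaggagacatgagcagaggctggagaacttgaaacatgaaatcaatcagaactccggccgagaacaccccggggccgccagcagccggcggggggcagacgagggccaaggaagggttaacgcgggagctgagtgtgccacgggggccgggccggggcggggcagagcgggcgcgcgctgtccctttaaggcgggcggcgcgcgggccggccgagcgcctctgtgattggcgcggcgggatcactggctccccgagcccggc
Dkk2: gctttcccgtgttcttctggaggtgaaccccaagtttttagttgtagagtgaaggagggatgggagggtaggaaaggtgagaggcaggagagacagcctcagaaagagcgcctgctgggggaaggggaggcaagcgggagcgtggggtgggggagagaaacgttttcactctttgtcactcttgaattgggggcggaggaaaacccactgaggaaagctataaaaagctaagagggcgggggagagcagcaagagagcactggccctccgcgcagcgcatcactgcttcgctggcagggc
The RefSeq table held windows of 24 of the 41 members, and Sp5 was the only one of these with a match, which begins 104 bases before its start. Of all 32851 promoter windows of this length, 8.65% held a match, beside 1 of the 32 windows of members (3.12%). A match is a string of letters and not a shown binding site, and these genes are also regulated from enhancers outside the window.

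Target genes of crypts and tumors did not follow a single pattern. Myc, a driver of growth, had 36.2, 36.4 and 39.8 FPKM in the Tmem173fl/fl and 44.4, 40.1 and 45.4 FPKM in the Tmem173iΔmye tumors. The groups did not overlap, but the gap between the nearest tumors was small, and the log2 fold change was 0.21 (SE 0.12, edgeR adjusted p = 0.742). Wnt5a and Myc were the 2 members (5.41%) whose groups did not overlap, while this held for 12.4% of all genes tested. Leaving out a single tumor, which makes separation easier for every gene, gave 4 to 11 such members (10.8% to 29.7%), beside 18.5% to 31.1% of all genes. Scaling to the epithelial markers gave 0, beside 10.6% of all genes. Ccnd1, which encodes the cell cycle regulator cyclin D1, had 26.9, 50.8 and 29.8 FPKM in the Tmem173fl/fl and 42.1, 40.6 and 45.5 FPKM in the Tmem173iΔmye tumors. Tmem173fl/fl replicate 2 was the highest tumor for Ccnd1 while the other 2 of its group were the lowest. The log2 fold change was 0.25 (SE 0.23), and without that tumor 0.58, with an unadjusted p under 0.05. The gene Oraov1 overlaps Ccnd1 on the other strand and had 13.3% of its mean count.

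Sox9, a transcription factor of crypt progenitors, had 55.5, 72.6 and 36.3 FPKM in the Tmem173fl/fl and 43.7, 55.2 and 62.1 FPKM in the Tmem173iΔmye tumors, and its log2 fold change was -0.030 (SE 0.25). Sox4 and Prox1, transcription factors linked to progression of colon tumors, had log2 fold changes of -0.64 (SE 0.34) and -0.30 (SE 0.32). Both were highest in Tmem173fl/fl replicate 2, at 72.0 and 72.2 FPKM, and lowest in Tmem173iΔmye replicate 1, at 19.9 and 25.9 FPKM. Without Tmem173fl/fl replicate 2 their log2 fold changes were -0.27 and -0.046, and without Tmem173iΔmye replicate 1 they were -0.40 and -0.035. Ephb2 and Ephb3, receptors that position cells along the crypt, had log2 fold changes of 0.00050 (SE 0.19) and 0.34 (SE 0.27). Cd44, a surface receptor of crypt and tumor cells, had -0.090 (SE 0.25), and Smoc2, a matrix protein of the stem cell signature, had 0.19 (SE 0.17).

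Across roles, Tmem173iΔmye replicate 1 was the tumor with the lowest FPKM for 24 of the 37 tested members (64.9%), while it was the lowest of the 6 tumors for 22.9% of all genes tested. All 4 tested feedback genes, 5 of 6 receptors, 4 of 5 extracellular inhibitors, 4 of 5 transcription factors and 3 of 4 genes of β-catenin and its destruction complex were lowest there, but only 2 of 9 crypt and tumor target genes, Sox4 and Prox1. Wnt2b, Ephb3 and Smoc2 were highest in the same tumor. The median member lay 0.35 below the mean of the 6 tumors on the log2(FPKM + 1) scale in this tumor, and between -0.10 and 0.20 from it in the others. In this tumor the summed level of the colon epithelial markers was the highest of the 6, at 19322 CPM, and that of the proliferation markers was 1386 CPM, against 829 to 1514 CPM in the other tumors. Tmem173fl/fl replicate 2 was the tumor with the highest FPKM for 15 members (40.5%), against 27.6% of all genes tested. It also had the highest summed proliferation markers, at 1514 CPM, and squamous keratin and related markers at 359 CPM, against 58.4 to 124 CPM in the other 5 tumors. The part of these in the members' levels was not tested. Without Tmem173iΔmye replicate 1, 17 members had a log2 fold change above 0 in place of 15, beside 46.9% of all genes, and the median was -0.0023. In that fit 3 members (8.11%, beside 3.50% of all genes) had an unadjusted p under 0.05, namely Wnt5a, Dkk3 and Nkd1. Without Tmem173fl/fl replicate 1, the number with an unadjusted p under 0.05 was 6 (16.2%), the highest of the 6 such fits, and the share of all genes was also at its highest there, at 10.1%.

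**Figure D3:**
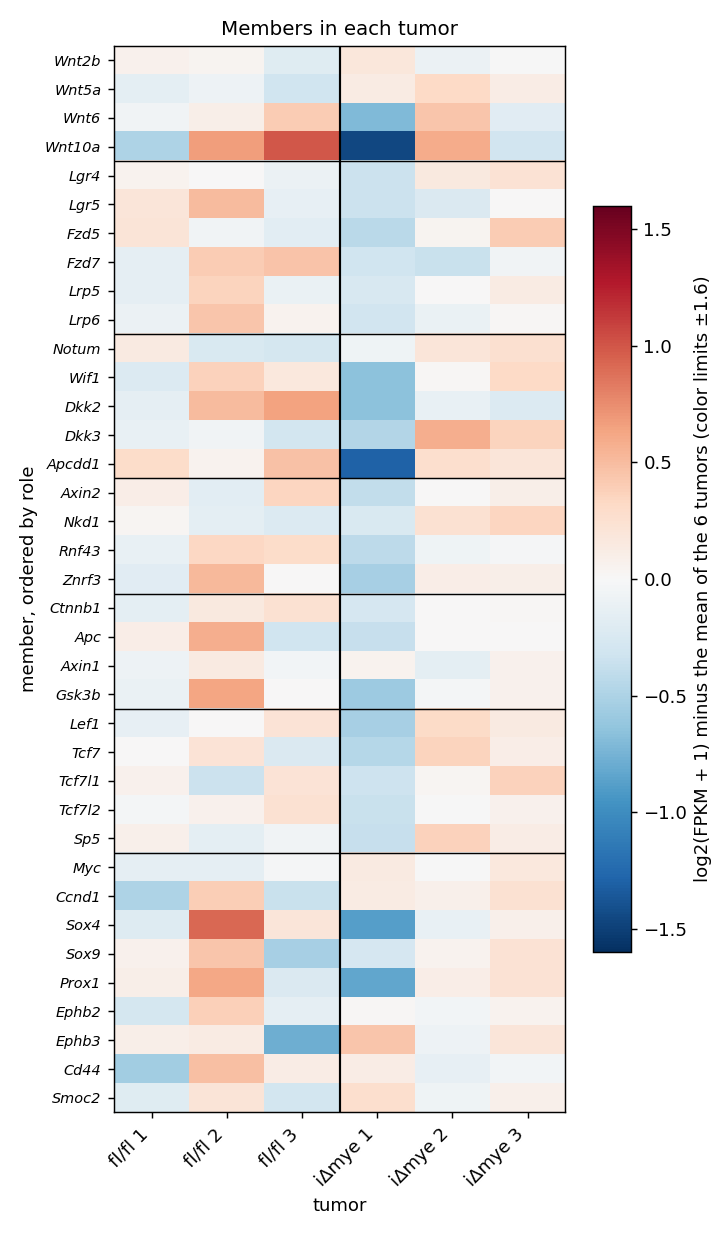
Level of each tested member in each tumor as log2(FPKM + 1) minus the mean of the 6 tumors, in red above and blue below it. The column of Tmem173iΔmye replicate 1 is blue for most roles and turns red for Myc, Ccnd1, Ephb3, Cd44 and Smoc2 among the target genes.

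**Figure D4:**
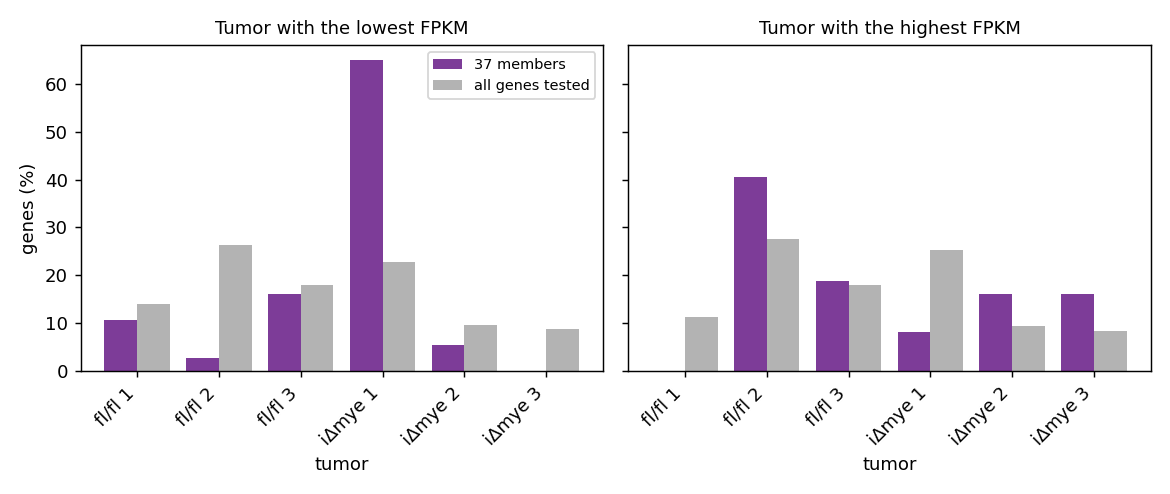
Share of the 37 members (purple) and of all genes tested (grey) that had their lowest (left) or highest (right) FPKM in each tumor, in percent. Tmem173iΔmye replicate 1 holds the lowest value for 64.9% of the members and 22.9% of all genes, and Tmem173fl/fl replicate 2 the highest for 40.5% and 27.6%.

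A list of 92 further genes of the pathway was examined in the same fit, of which 69 passed the filter. An unadjusted p under 0.05 was found for 7 of them (10.1%, beside 6.14% of all genes), 2 higher and 5 lower in Tmem173iΔmye tumors, and 0 had an adjusted p under 0.05 in edgeR. The median log2 fold change of the 69 was -0.12, with 24 above 0 (34.8%, beside 49.4% of all genes). Scaled to the epithelial markers, 4 (5.80%) had an unadjusted p under 0.05, beside 5.54% of all genes, and 3 (4.35%) did in a fit with a term for Y-linked reads, beside 3.37% of all genes.

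Among these, Igfbp4, a secreted binding protein of the crypt stem cell signature, had 110, 144 and 95.6 FPKM in the Tmem173fl/fl and 195, 161 and 162 FPKM in the Tmem173iΔmye tumors, without overlap. Its log2 fold change was 0.57 (SE 0.19, edgeR adjusted p = 0.742). Wnt5b, the closest relative of Wnt5a, had 1.42, 1.11 and 1.33 FPKM against 1.64, 3.34 and 1.84 FPKM, a log2 fold change of 0.82 (SE 0.34). Wls, the carrier that brings Wnt ligands to the cell surface, had 21.7, 22.7 and 23.3 FPKM against 17.3, 19.1 and 19.6 FPKM, and Fzd6, a Frizzled receptor, had 6.56 to 6.78 FPKM against 5.20 to 5.41 FPKM. The log2 fold changes were -0.28 (SE 0.12) for Wls and -0.32 (SE 0.13) for Fzd6.

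Bcl9l, a co-activator that docks on β-catenin, had 11.2, 14.3 and 13.1 FPKM in the Tmem173fl/fl and 8.37, 10.4 and 9.31 FPKM in the Tmem173iΔmye tumors, a log2 fold change of -0.46 (SE 0.14). Amer1, a membrane partner of APC, had a log2 fold change of -0.61 (SE 0.19). Wnt16 had 0.749, 0.812 and 3.83 FPKM against 0.390, 0.459 and 0.407 FPKM, with Tmem173fl/fl replicate 3 far above the other 5 tumors and a log2 fold change of -2.10 (SE 0.66). The groups did not overlap for any of these 7 genes, which were named for their low p, and this held for 12 of the 69 (17.4%), beside 12.4% of all genes tested.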

How the data were processed

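Total tumor RNA of 6 samples was sequenced as polyA RNA. Per the labels and the submitters' processing notes, CASAVA 1.8, fastp, HISAT2 2.0.5, featureCounts 1.5.0-p3 and DESeq2 1.20.0 were used with GRCm38. The strand setting was not given in the sources used here. The deposited table holds raw counts and FPKM made by the authors. The FPKM values equal counts scaled by gene length, median-of-ratios size factors and the geometric mean of library totals. The table's authors' fold changes, p-values and group means were not used.

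The test was the quasi-likelihood test of edgeR 4.0.16 in R 4.3.3 on the counts, with TMM scaling and genotype alone in the model. Genes under a mean FPKM of 0.5 were left out, and p-values were adjusted by Benjamini-Hochberg over the other 16426. The SE of a log2 fold change is its size over the root of F. Summed marker levels are CPM. Groups were called not overlapping on FPKM. The script was tested on simulated counts. Every member was named, and values in every tumor were given by rule for members with an unadjusted p under 0.05, members whose groups do not overlap and Axin2, Lgr5, Ctnnb1, Apc, Myc, Ccnd1, Sox9, Notum, Wif1, Rspo3, Wnt2b and Wnt5a. The detail on Wnt6, Wnt10a, Rspo1, Rspo2, Nkd2, Dkk3, Apcdd1, Sox4, Prox1 and Sp5 was added after their values were seen. Other pathway genes were named for an unadjusted p under 0.05. The members and lists were chosen with earlier results of these data known. Of the marker lists, 0 genes had an adjusted p under 0.05. Alternatives were other filters and scalings, DESeq2 1.42.0, limma 3.58.1 on log2(FPKM + 1) or log2(FPKM + 0.1), the replicate number as a block, Y-linked reads as a term and leaving out each tumor.

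The median log2 fold change was 0.096 for 16 colon epithelial, 0.36 for 12 fibroblast, -0.51 for 9 smooth muscle, 0.046 for 3 enteric neuron and glia, 0.22 for 8 endothelial, 0.18 for 12 leukocyte, -0.71 for 7 squamous and 0.077 for 12 proliferation markers tested. In the neuron and glia list Sox10 and S100b, and in the squamous list Krt5 and Sprr3, were at 0 counts in at least 1 tumor.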

Additional observations from a re-analysis of the deposited data

How the results depend on the processing

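No member had an adjusted p under 0.05 under any alternative run. The number of members with an unadjusted p under 0.05 (3) was 5 with no filter on mean FPKM (12.2%, beside 5.63% of all genes), where Lgr5 and Sox4 were added, and ranged from 2 to 6 without single tumors, where the share of all genes ranged from 3.26% to 10.1%. Without single tumors, members past both limits ranged from 0 to 1, and the share of all genes past both was not worked out for these fits. The median log2 fold change ranged from -0.18 to -0.0023, and members above 0 from 10 to 18, beside 46.9% to 51.2% of all genes. Members whose groups do not overlap ranged from 4 to 11 (beside 18.5% to 31.1% of all genes), and other pathway genes with an unadjusted p under 0.05 from 5 to 8. Scaling to the colon epithelium list moved the median of all genes to -0.12 and that of the members to -0.21. On this scale 9 members were above 0, beside 33.9% of all genes, and 0 did not overlap, beside 10.6% of all genes. There 4 other pathway genes had an unadjusted p under 0.05 (all genes 5.54%). With Y-linked reads as a term the median of the members was above 0, at 0.0079, and 20 members were above 0, beside 49.9% of all genes. In that fit 3 other pathway genes had an unadjusted p under 0.05 (all genes 3.37%). The cause of these moves was not tested.

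Tumors of the groups share only a replicate number in their titles, which does not pair them. The deviations of same-numbered tumors correlated from 0.00022 to 0.27 across genes, and 3 of 6 tumors correlated best with their own number. With the replicate block, 6 members (16.2%) had an unadjusted p under 0.05, beside 9.16% of all genes, among them Wnt10a (-0.86), Rnf43 (-0.34) and Sox4 (-0.63).

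Log2 fold changes near 0 changed sign, none of them with an unadjusted p under 0.05 in either fit, for Ephb2 (-0.0012) with a mean FPKM of at least 1, for Ephb2 (-0.0068) with median-of-ratios size factors, for Ephb2 (-0.0068) with DESeq2, for Sox9 (0.010) with limma on log2(FPKM + 1), for Sox9 (0.011) with limma on log2(FPKM + 0.1), for Sox9 (0.0053) with the replicate block, for Lrp5 (4.1e-07), Axin1 (0.020), Lef1 (0.059), Sox9 (0.0079) and Cd44 (0.10) with Y-linked reads as a term, for Wnt2b (-0.0039), Lgr4 (-0.055), Fzd5 (-0.046), Tcf7 (-0.076), Tcf7l1 (-0.037) and Ephb2 (-0.14) with the epithelial scaling. Without single tumors the sign also changed in some fits for further members, given here with their lowest and highest log2 fold changes over these fits. They were Wnt2b (-0.063 and 0.25), Lgr4 (-0.068 and 0.21), Fzd5 (-0.20 and 0.25), Lrp5 (-0.18 and 0.088) and Wif1 (-0.41 and 0.046). The same held for Axin1 (-0.064 and 0.052), Lef1 (-0.26 and 0.23), Tcf7 (-0.17 and 0.23) and Tcf7l1 (-0.16 and 0.23). It also held for Sp5 (-0.071 and 0.29), Sox9 (-0.25 and 0.22), Ephb2 (-0.13 and 0.23) and Cd44 (-0.33 and 0.17).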
